A study of Mus musculus with 6 samples.

Results

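The 10 genes described here are Runx2, Sp7, Alpl, Spp1, Ibsp, Postn, Sparc, Mgp, Omd and Phex, a list of genes known from osteoblasts, the cells that lay down bone. They were taken by symbol, as every probe of the array annotated to 1 of them, which gave 15 probes among 45281. These probes cover 8 of the 10 genes. No probe in the annotation used here carries the symbol Runx2 or Spp1, and these 2 genes are not analysed here. Transcripts were measured in mouse embryonic fibroblasts, connective tissue cells grown from dissociated embryos, on a mixed 129SV and C57BL/6 background. There were 3 arrays of Lpar6+/+ cells (wild type, arrays A to C) and 3 of Lpar6-/- cells (knockout, arrays D to F), with no treatment or embryonic age in the labels. All 6 sample titles carry the same number, read here as that of 1 slide. Lpar6 encodes a receptor for the lipid signal lysophosphatidic acid. The series title speaks of a knock-down while the genotype labels give Lpar6-/-, and the groups follow the genotype labels. The comparison asks how fibroblasts without that receptor differ from those that have it. Separate embryos or cultures are not named for the 3 replicates of a genotype. The p-values below are therefore about the spread among arrays, part or all of which may be technical.

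Osteoblasts arise from mesenchymal precursors under the transcription factors Runx2 and, downstream of it, Sp7 (osterix). They secrete a matrix of type I collagen and proteins that bind it, and then mineralise it: the alkaline phosphatase Alpl removes pyrophosphate, which blocks crystal growth, while Mgp (matrix Gla protein) holds calcification back. Several of these genes, Sparc and Postn among them, are also expressed by fibroblasts, and Mgp by cartilage and smooth muscle cells, so their transcripts do not by themselves mark an osteoblast.

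On the wild-type arrays 19646 to 20137 probes were detected (detection p below 0.05), and on the knockout arrays fewer, 19006 to 19249. The lowest detected signal was 4.88 to 4.92 in the wild type and 4.96 to 4.99 in the knockout (log2 normalised intensity). The 19802 probes detected on at least 3 of the 6 arrays were tested. The wild-type arrays correlated with each other at 0.995, the knockout arrays at 0.993 to 0.994 and arrays of different genotype at 0.966 to 0.968. The single Lpar6 probe was not detected on any knockout array and was at least 37.5-fold lower there (limma, adjusted p = 1.51e-09). The deleted stretch of the gene is not described in the labels, so whether this probe falls within it is unknown here. All 7 fibroblast markers (Pdgfra, Pdgfrb, Col3a1, Thy1, Dcn, Vim and S100a4) were detected on all 6 arrays. The number of arrays limits the precision.

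Ibsp, Sparc and Mgp were higher in the knockout, Omd was lower, and for Sp7, Alpl and Phex no change passed the test. Postn was not well above background on any array. The regions upstream of 3 of these genes are shown here because Ibsp and Sparc rose while Omd fell. Each is the 250 bases before the annotated transcript start, 5′ to 3′ on the gene's own strand, from RefSeq on GRCm38.p6. Windows were found for 8 of the 10 genes, and Sp7 and Mgp had none. Capitals mark matches, on either strand, to any of 5 motifs, which do not overlap in these windows. The core bound by RUNX factors was searched as TGTGGT, and the GC box of Sp factors as GGGCGG. The core bound by many homeodomain factors was searched as TAATTA, the box bound by NF-Y as CCAAT, and the TATA box as TATAAA.
Ibsp, chr5:104299037-104299286, + strand: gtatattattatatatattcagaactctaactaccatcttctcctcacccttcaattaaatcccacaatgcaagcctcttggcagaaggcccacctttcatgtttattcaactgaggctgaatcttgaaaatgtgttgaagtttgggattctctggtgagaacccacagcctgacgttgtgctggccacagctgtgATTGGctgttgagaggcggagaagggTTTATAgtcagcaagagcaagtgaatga
Sparc, chr11:55420081-55420330, - strand: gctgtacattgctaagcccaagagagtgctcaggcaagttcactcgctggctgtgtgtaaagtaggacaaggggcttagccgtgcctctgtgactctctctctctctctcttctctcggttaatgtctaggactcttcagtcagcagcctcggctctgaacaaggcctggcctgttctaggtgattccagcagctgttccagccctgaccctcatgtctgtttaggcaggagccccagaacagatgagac
Omd, chr13:49582212-49582461, + strand: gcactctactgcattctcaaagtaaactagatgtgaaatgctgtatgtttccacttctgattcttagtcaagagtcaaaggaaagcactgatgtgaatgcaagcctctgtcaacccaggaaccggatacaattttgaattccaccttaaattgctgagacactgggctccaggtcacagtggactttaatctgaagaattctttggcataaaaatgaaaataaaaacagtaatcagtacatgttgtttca
The Ibsp window held a CCAAT box, its first base 54 bases before the start, and a TATA box, 28 bases before it, both on the opposite strand. CCAAT occurred in 33.8% and TATAAA in 12.4% of all 32851 such windows in the table. Neither the Sparc nor the Omd window held any of the 5 motifs. GGGCGG occurred in 32.7% and TAATTA in 4.84% of all windows. TGTGGT, which occurred in 14.0%, was in none of these 3, and was found among the 10 genes in the windows of Runx2 and Spp1. A match is a string of letters and does not show that a factor binds there, and the absence of a match says only that these letters are not in the window.

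Levels below are log2 normalised intensities, and changes are knockout minus wild type on that scale ± SE from limma, with 3 arrays in each group. Adjusted p-values are Benjamini-Hochberg values over all 19802 tested probes, with a threshold of 0.05. Of the 15 probes, 12 were tested, and 8 of these passed, 7 higher and 1 lower, where 37.9% of all tested probes passed, 19.3% higher and 18.6% lower. Over all probes this was 3819 higher and 3691 lower, a split that moved to 2227 and 5026 under median scaling over all probes. By gene, each represented by its brightest tested probe, 4 of 7 passed, where 39.7% of 11040 genes did. Higher in the knockout were 3 of the 7, against 20.6% of all genes, and lower 1, against 19.1%. The 2 groups of arrays did not overlap for 8 of the 12 probes, and for 50.3% of all tested probes. By gene they did not overlap for 4 of 7, against 52.8% of all genes. The median change of the 7 genes was 0.027 and that of all 11040 genes also 0.027. With 7 genes, these shares are a description of the list.

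**Figure D1:**
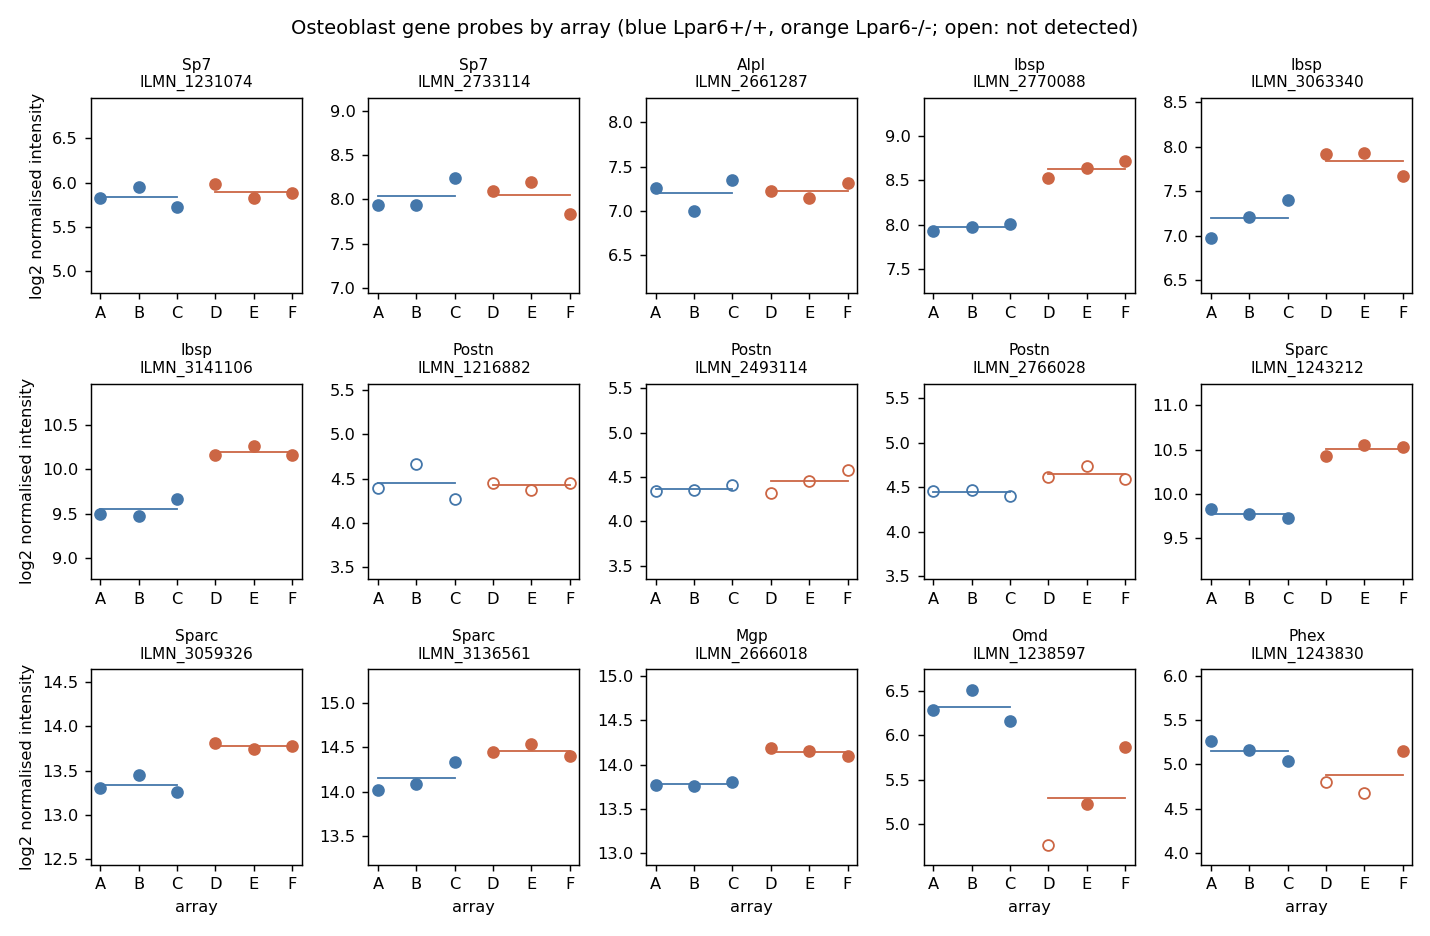
Log2 normalised intensity (y axis, a span of the same height in each panel) of the 15 probes on wild-type arrays A to C (blue) and knockout arrays D to F (orange). Lines are group means, and open circles are arrays on which the probe was not detected. The 3 Ibsp probes, the 3 Sparc probes and Mgp are higher on all knockout arrays than on any wild-type array, Omd is lower, and the 3 Postn probes are undetected throughout.

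The regulator Sp7, which commits precursors to the osteoblast fate, showed no change that passed the test by either of its probes. The brighter (ILMN_2733114) lay at 7.94, 7.94 and 8.25 on the wild-type arrays and at 8.10, 8.20 and 7.84 on the knockout arrays. The groups overlapped, with a change of 0.0055 ± 0.13 (limma, adjusted p = 0.978) and a 95% interval from -0.28 to 0.29. The dimmer (ILMN_1231074) gave 5.83, 5.95 and 5.73 against 5.98, 5.83 and 5.89, a change of 0.062 ± 0.097 with an interval from -0.16 to 0.28. Both probes were detected on all 6 arrays, so their signal was above background in both genotypes. The sign of these small changes turned with the scaling: under median scaling over all probes they were -0.14 and -0.13.

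Alpl, the tissue-nonspecific alkaline phosphatase that osteoblasts carry on their surface, was also detected on all arrays. Its probe (ILMN_2661287) gave 7.26, 7.003 and 7.34 in the wild type and 7.23, 7.15 and 7.31 in the knockout. These ranges overlapped, and the change was 0.027 ± 0.11 (limma, adjusted p = 0.87), with an interval from -0.22 to 0.28. It too turned sign under median scaling over all probes (-0.15) and cyclic loess (-0.016).

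Phex is an endopeptidase of osteoblasts and osteocytes whose loss raises the phosphate-lowering hormone Fgf23. Its probe (ILMN_1243830) was close to background, at 5.26, 5.16 and 5.04 on the wild-type arrays, where it was detected each time, and at 4.81, 4.68 and 5.15 on the knockout arrays, where it was detected only on F. The highest knockout value fell among the wild-type values. The change of -0.28 ± 0.13 did not pass (limma, adjusted p = 0.13, interval from -0.57 to 0.020). Without knockout array F it was -0.42 and passed (adjusted p = 0.0211), and the highest adjusted p over 16 alternatives was 0.346. Fgf23 itself was not detected on any array by its brightest probe.

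Ibsp, bone sialoprotein, binds collagen and hydroxyapatite and is made where mineral first forms; it rose by all 3 of its probes and by nearly the same amount. The brightest (ILMN_3141106) lay at 9.50, 9.47 and 9.67 on the wild-type arrays and at 10.16, 10.26 and 10.17 on the knockout arrays. Every knockout value was above every wild-type value, a change of 0.65 ± 0.094, or 1.57-fold (limma, adjusted p = 0.000611). The second probe (ILMN_2770088) went from 7.93, 7.98 and 8.00 to 8.53, 8.64 and 8.72, a change of 0.66 ± 0.091 (limma, adjusted p = 0.000462). The dimmest (ILMN_3063340) went from 6.97, 7.21 and 7.41 to 7.91, 7.93 and 7.67, a change of 0.64 ± 0.13 (limma, adjusted p = 0.00373). For the dimmest probe the change was 0.39 when background correction was left out and the offset raised to 50, and 0.46 in the authors' values. The 3 probes passed under all 17 alternatives.

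Ibsp sits in a row of genes for related acidic matrix proteins on chromosome 5, in the order Dspp, Dmp1, Ibsp, Mepe and Spp1. Of the others with a tested probe, Dspp, which is best known from dentine, had a change of -0.15 ± 0.22, and Mepe, made by osteocytes, one of 0.051 ± 0.11. Neither passed (limma, adjusted p = 0.61 and 0.74). Dmp1, also of osteocytes, was not detected on any array by its brightest probe. Dspp, Mepe and Dmp1 were near or below background, which limits what could be seen for them.

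Sparc (osteonectin) binds collagen and calcium and is abundant in bone and in cultured fibroblasts. All 3 of its probes rose, by amounts that differed: 0.73 ± 0.088 for ILMN_1243212 (limma, adjusted p = 0.000198), 0.44 ± 0.091 for ILMN_3059326 (0.00454) and 0.31 ± 0.11 for ILMN_3136561 (0.0466). The first lay at 9.83, 9.78 and 9.73 in the wild type and at 10.43, 10.55 and 10.53 in the knockout. The second lay at 13.30, 13.45 and 13.27 against 13.81, 13.74 and 13.78. The brightest, ILMN_3136561, lay at 14.02, 14.09 and 14.34 against 14.44, 14.54 and 14.40, so that its groups were separated by only a small gap between wild-type array C and knockout array F. The deposited intensities of that probe were 17173 to 18466 in the wild type and 22580 to 25206 in the knockout.

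The call of the brightest Sparc probe was close to the threshold. It was lost without wild-type array A (0.25, limma adjusted p = 0.149), without wild-type array B (0.28, adjusted p = 0.128), and without knockout array D (adjusted p = 0.0778), E (0.132) or F (0.0671). It was also lost with no detection filter (adjusted p = 0.0761). Its change was larger under median scaling, 0.47 over all probes and 0.65 over the kept probes, with adjusted p-values from 0.000589 to 0.149 over the 17 alternatives. The other 2 Sparc probes passed under all 17, with ILMN_3059326 at 0.74 under median scaling over the kept probes.

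Mgp, the vitamin K-dependent inhibitor of calcification, was among the bright transcripts and rose. Its probe (ILMN_2666018) lay at 13.77, 13.76 and 13.81 on the wild-type arrays and at 14.19, 14.16 and 14.10 on the knockout arrays. The groups did not overlap and each was tight, with a change of 0.37 ± 0.084, or 1.29-fold (limma, adjusted p = 0.00752). In deposited intensities, this was 13136 to 14800 against 18197 to 19059. The change was 0.66 under median scaling over the kept probes.

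Omd (osteomodulin, or osteoadherin) is a keratan sulfate proteoglycan of bone in the small leucine-rich family, and it was the 1 gene of the list that fell. Its probe (ILMN_1238597) lay at 6.28, 6.51 and 6.16 on the wild-type arrays and at 4.77, 5.23 and 5.87 on the knockout arrays. All knockout values were below all wild-type values, but they spread widely (SD 0.55, against 0.18 in the wild type), and the probe was not detected on knockout array D. The change was -1.03 ± 0.24 (limma, adjusted p = 0.00752), and since 1 knockout array was at background its size is uncertain. In deposited intensities the wild type lay at 162, 170.0 and 141 and the knockout at 93.9, 103 and 119. The size depended on the background correction and the offset. The change was -0.62 with correction and an offset of 50, -0.46 in the authors' values, which have neither, and -0.33 with an offset of 50 and no correction, and passed in each. Asked for detection p below 0.01 on all 6 arrays, the probe was not tested.

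Omd lies on chromosome 13 in a row of small leucine-rich proteoglycan genes, in the order Ecm2, Aspn, Omd and Ogn. Ogn (osteoglycin), a matrix protein of bone and connective tissue, was lower too, by 0.78 on the log2 scale (-0.78 ± 0.11, limma adjusted p = 0.00041) from a mean of 12.51 ± 0.14 to 11.72 ± 0.11 (SD, n = 3). Of its other 2 tested probes, ILMN_2859619 gave -0.51 and passed (adjusted p = 0.0134), and ILMN_2740622 gave -0.024 and did not. Ecm2 and Aspn were not detected on any array by their brightest probes. Over 11039 other genes, the 3 whose mean-centred values on the 6 arrays lay nearest to those of Omd were Tspyl5 (distance 0.32, change -0.94), Ambp (0.44, change -0.96) and Pcdh10 (0.46, change -1.21), distances being Euclidean on the log2 scale.

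Postn, periostin, a matrix protein named for the periosteum and common in fibroblasts, was not well above background. Its probes ILMN_1216882, ILMN_2493114 and ILMN_2766028 had intensities of 69.5 to 96.6, 75.3 to 84.4 and 78.3 to 91.6 over the 6 arrays. In the authors' deposited table the lowest detection p of a Postn probe was 0.150, so no comparison of Postn was made.

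**Figure D2:**
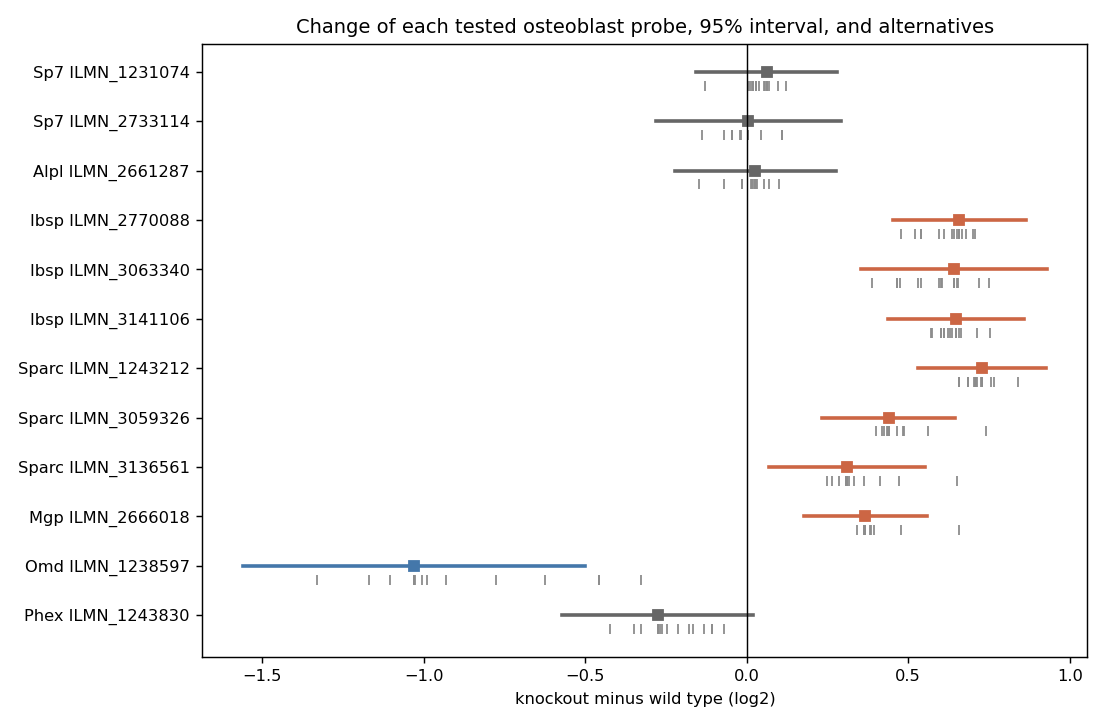
Change (x axis, knockout minus wild type, log2) of the 12 tested probes with 95% intervals from limma, orange where higher, blue where lower and grey where the test was not passed. Small ticks under each bar are the values under the alternatives, 17 for most probes and 16 for Omd and Phex. The Ibsp changes lie at 0.64 to 0.66, the Sparc changes spread from 0.31 to 0.73, and Omd ranges from -1.33 to -0.33 over its alternatives.

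Further genes of bone formation were described from 6 lists of 68 genes in all, of which 50 had a tested probe. Of these 50, 16 were higher and 7 lower (46.0% called, against 39.7% of all genes), with a median change of 0.097. Of 9 tested genes for transcriptional regulators of osteoblasts, 5 rose and 1 fell, with a median of 0.38. Among all genes, 20.6% were higher and 19.1% lower. The vitamin D receptor gene Vdr rose by 0.93 ± 0.084 (limma, adjusted p = 3.03e-05), with the same value from its other probe. Runx1, a relative of Runx2 best known from blood, rose by 0.54 ± 0.10, and Twist2, which restrains osteoblast differentiation, by 0.51 ± 0.093. Msx1, a homeobox gene of craniofacial bone, was lower (-0.50 ± 0.11). Dlx5, Dlx6, Msx2 and Runx3 were not detected on any array by their brightest probes.

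Among genes of mineralisation and phosphate handling, 2 of 6 were lower and none higher, with a median of -0.15. The shares of all genes were 19.1% lower and 20.6% higher. Smpd3, a sphingomyelinase needed for bone mineralisation, fell by 0.84 (-0.84 ± 0.099, limma adjusted p = 0.000171). Fam20c, the kinase that phosphorylates secreted matrix proteins including Ibsp, was lower by its brighter probe (-0.37 ± 0.088), while its other probe gave -0.052 and did not pass. Under median scaling over all probes, 3 of the 6 were lower.

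Bone matrix genes went both ways, 5 of 15 higher and 2 lower, where 20.6% of all genes were higher and 19.1% lower. Their median was 0.22. Col1a1 and Col1a2, the chains of type I collagen, rose by 0.84 ± 0.094 and 1.11 ± 0.15. Serpinf1, the secreted factor PEDF, rose by 1.38 ± 0.10, though its dim other probe gave 0.00070, and Thbs2, a thrombospondin, by 1.07 ± 0.093. The remaining 3 genes that passed were named after their values were seen. Ifitm5, which is largely restricted to osteoblasts, rose by 0.53 ± 0.11 (limma, adjusted p = 0.00393) and passed under all 17 alternatives. The 2 that fell were both osteocalcin genes, which mark mature osteoblasts: Bglap2 (-0.84 ± 0.12, limma adjusted p = 0.000675) and Bglap (-0.53 ± 0.15, adjusted p = 0.0174). They are near-identical copies, so which of them each probe reads is uncertain. Bglap was detected on only 1 knockout array, and its call was lost without wild-type array B or C or knockout array E or F, with an offset of 50 and no background correction, and at a threshold of 0.01, with adjusted p between 0.0016 and 0.0633 over 16 alternatives. The count of higher genes was 10 under median scaling over the kept probes.

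Among 10 tested relatives of the listed genes, 4 rose and 2 fell, with a median of -0.013, where 20.6% of all genes rose and 19.1% fell. Of the small leucine-rich family to which Omd belongs, Prelp (0.92 ± 0.11), Fmod (0.63 ± 0.15) and Lum (0.61 ± 0.094, named after its value was seen) rose while Ogn fell. From other lists, Bgn (0.14 ± 0.10) and Dcn (0.30 ± 0.12) of this family, also named after their values were seen, did not pass. Dcn passed under 8 of 17 alternatives and Bgn under 1. Sp6, a relative of Sp7 known from teeth, was lower (-0.62 ± 0.14), was detected on 1 knockout array, and did not pass by its other probe (-0.39). Of 5 tested receptor genes for osteopontin and periostin, Itgb5, an integrin chain, was the 1 that passed (0.46 ± 0.11). The number was 3 in the authors' values and with background correction and an offset of 50, where Itgb1 and Itga9 passed too. It was 2 without knockout array F, where Itgb1 also passed. It was also 2, through Itga9, with an offset of 50 and no correction, under median scaling over the kept probes, and with other eBayes options. Of 5 tested genes of osteocyte and osteoclast signals, Pth1r, the parathyroid hormone receptor, was the 1 that passed: it rose by 0.67 ± 0.089, with 0.49 and 0.48 from its other probes, which also passed.

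Markers of other cell types moved on the same arrays, and their part in the changes above was not tested. In RNA from a whole culture, fewer cells of a type and less RNA per cell cannot be told apart. Cartilage expresses Mgp and, when it matures, Ibsp and Alpl. Cartilage markers were lower in 9 of 9 genes, where 19.1% of all genes were lower, with a median of -1.71 (unchanged with Col10a1 at its bound). Their summed normalised intensity lay between 17720 and 18094 in the wild type and between 4277 and 4339 in the knockout, with all 9 detected on some array. Col10a1, the collagen of maturing cartilage cells, was not detected on any knockout array and was at least 4.20-fold lower (limma, adjusted p = 5.18e-07). It passed the detection filter only through the wild-type arrays, so its direction was largely fixed by the filter. With detection p below 0.01 on all 6 arrays, 7 cartilage genes were tested and all were lower. Over the same arrays Ibsp and Mgp went up and Alpl did not pass, and whether cartilage cells had any part in these values was not tested.

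Fibroblast markers were higher in 5 of 7, with summed intensities of 23422 to 25866 in the wild type and 38754 to 41644 in the knockout, led by Thy1 (1.68 ± 0.099). The count of 5 was 7 in the authors' values and under both median scalings, and 4 at a threshold of 0.01. Adipocyte markers were higher in 6 of 6 tested genes, with sums of 486 to 515 against 2517 to 2767, and Fabp4 undetected on every array by its brightest probe. Their median was 1.55 as fitted and 1.40 with Adipoq, Cidec and Plin1, which were undetected in the wild type, at their bounds. Adipoq, Cidec and Plin1 passed the detection filter only through the knockout arrays, so their direction was largely fixed by the filter. With detection p below 0.01 on all 6 arrays, 2 adipocyte genes were tested and both were higher. Osteoclast markers were higher in 2 of 3 tested genes, Ctsk (1.79 ± 0.099) and Mmp9 (1.84 ± 0.16), with sums of 1594 to 1796 against 5294 to 5894. Acp5, Calcr, Dcstamp, Ocstamp and Atp6v0d2, which define osteoclasts, were not detected on any array by their brightest probes. Of 5 tested smooth muscle genes 3 were higher, and of 2 tendon genes 1 was lower (Scx, -0.68 ± 0.10). Of 4 macrophage genes 1 was lower, Lyz2 (-0.45 ± 0.11), while its other probe gave 0.052 and did not pass. Beside all these counts, 20.6% of all genes were higher and 19.1% lower.

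**Figure D3:**
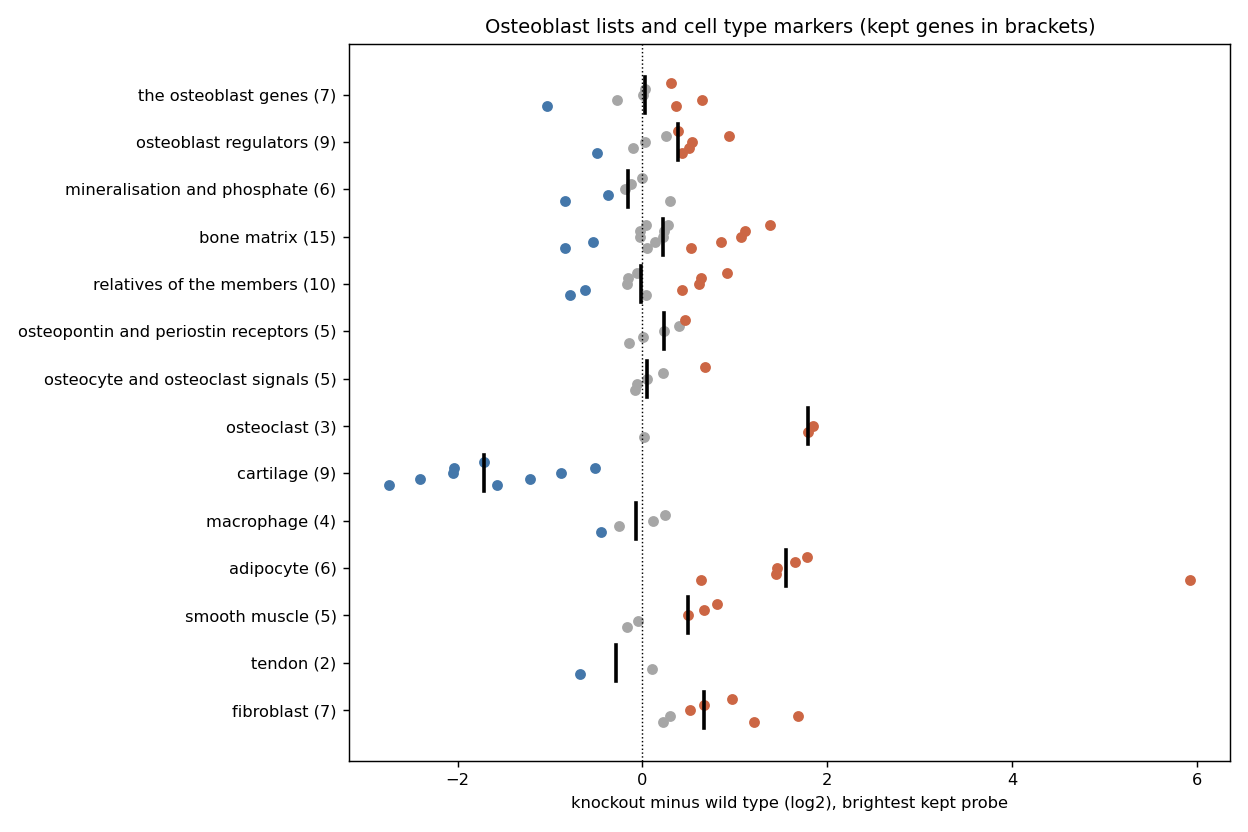
Change (x axis, knockout minus wild type, log2, brightest kept probe) of each tested gene in the lists of bone formation and cell type markers. Orange points passed the test upward, blue points downward, grey points did not pass, and black bars are medians. Points are fitted values, also for Adipoq, Cidec, Plin1 and Col10a1, which were undetected in 1 genotype. The osteoblast genes straddle 0, with a median of 0.027, while the cartilage points all lie below 0.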

How the data were processed

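Biotinylated cRNA from total RNA was hybridised to Illumina mouse bead arrays, per the labels' protocols. Per the file headers, the authors deposited bead intensities that had not been normalized. Beside each intensity they deposited a detection p-value. They also deposited log2 values, for which limma is named per the submitters' processing notes; these match the log2 of the intensities after quantile normalization alone, to within 9e-05 in each genotype's mean. All 6 columns of them have a median of 6.54. Their scale and direction follow from that match within each genotype, and their centring from the equal medians. The intensity columns are lettered A to F within the genotypes and have no replicate number.

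Intensities were background-corrected (normexp, from detection p-values), quantile-normalized and log2-transformed with an offset of 16 (neqc, limma 3.58.1, R 4.3.3). With this offset, fold changes of dim probes come out smaller than they were. Probes with detection p below 0.05 on at least 3 of 6 arrays were kept (19802 of 45281, 43.7%) and tested with lmFit and eBayes, without a block. The array annotation of GEO gave 34885 probes 1 symbol, 18 several and 10378 none here. Of these, 34807 matched a RefSeq gene table (GRCm38.p6) by Entrez ID, with 0 symbols changed. A gene is represented by its brightest kept probe. For a bound, the dim group's arrays each enter at the lowest detected signal or, if greater, at the probe's measured signal. Marker sums take each gene's brightest probe and include the offset.

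The members and lists were chosen with earlier results of these data known. Named were all listed genes, at most 4 called genes with the largest change per further list, and the 3 genes nearest to Omd. Bglap, Bglap2, Bgn, Dcn, Ifitm5 and Lum, and genes named as undetected or as chromosomal neighbours, were added after their values were seen. The 17 alternatives covered background, offset, scaling, the authors' values, filters, eBayes options, the threshold and leaving out each array. Replicate numbers 1 to 3, shared by the genotypes, exist only for the authors' log2 values.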

Additional observations from a re-analysis of the deposited data

How the results depend on the processing

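Of the tested osteoblast probes, 12 in most settings, 7 or 8 passed under each of the 17 alternatives, and the number was 7 to 8 when each array was left out in turn. With no detection filter 15 were tested. With detection p below 0.01 on all 6 arrays 10 were tested, and 7 were higher and 0 lower. Without knockout array F, 6 were higher and 2 lower, the lower ones Omd and Phex. Of 8 probes that passed, Ibsp (3 probes), Mgp, Omd and the 2 dimmer Sparc probes passed in every alternative in which they were tested. The brightest Sparc probe did not in 7 of 17, and by gene 2 were then higher in place of 3. Changes of genes that did not pass turned sign: under median scaling over all probes Sp7 gave -0.13 (ILMN_1231074) and -0.14 (ILMN_2733114) and Alpl -0.15, and under cyclic loess Sp7 (ILMN_2733114) gave -0.019 and Alpl -0.016. With each array left out, Sp7 (ILMN_2733114) ranged from -0.070 to 0.11 and Alpl from -0.072 to 0.099. Phex passed in 1 of 16. The median change of all genes was 0.027, -0.081 under median scaling over all probes and 0.099 over the kept probes, an alternative chosen after seeing the data; among all tested probes these gave 3819 higher and 3691 lower, 2227 and 5026, and 4776 and 3177. A threshold of 0.01 gave 4769 calls over all probes in place of 7510.

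The replicate numbers gave no sign of pairing: deviations of same-numbered arrays from their group means correlated at -0.048, 0.020 and -0.054. Differently numbered arrays gave -0.11 to 0.15. With 3 arrays in each group, these values cannot settle whether the samples were paired. With the replicate block, run on the authors' log2 values, 8 of the 12 probes passed, as without it, and 8190 in place of 8281 over all probes. Phex and Omd lie near background, and Postn below it, which limits what the arrays can show for them.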
